A study of Homo sapiens with 6 samples.

Results

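The AP-1 and other immediate early factors are 10 transcription factor genes: FOS, FOSL1 and FOSL2 of the FOS family, JUN, JUNB and JUND of the JUN family, and EGR1, ATF3, KLF6 and MYC. They were taken by gene symbol from the table of read counts, which lists 26524 genes, and each of the 10 symbols matched 1 row. RNA sequencing was done on 3 control libraries and 3 libraries of cells carrying a short hairpin against LIS1, named shLIS1 here. All were SCC25 cells, an established human line of squamous cells from a tongue carcinoma, and LIS1 is the dynein regulator encoded by PAFAH1B1. The labels call the genotype of the first group Control and that of the second Knockdown, mark the control titles NC, put all 6 libraries in batch 1, and do not say whether control cells carried a hairpin of their own. They also do not say whether hairpins 1 to 3 were 1 hairpin or several, nor whether the libraries came from separate cultures, so p-values measure the spread between these libraries, which may be technical.

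Immediate early genes are transcribed within minutes of growth factor, stress or adhesion signals, without prior protein synthesis, because the factors that switch them on are already bound and are activated by MAP kinases. FOS and JUN proteins join through leucine zippers into AP-1 dimers, and JUN proteins can also pair with each other or with ATF proteins. In squamous epithelium AP-1 drives both wound-type migration genes and genes of the cornified envelope, and FOSL1 is known as the FOS protein of invasive carcinoma cells. EGR1 is a zinc finger factor induced by serum response factor (SRF), KLF6 is a Krüppel-like zinc finger factor, ATF3 is a stress-induced member of the ATF and CREB family, and MYC pairs with MAX to drive growth genes.

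Start regions of these genes were searched for letters known as sites through which such signals act. Windows of 5 genes with a match are shown, and not every gene with a match is among them. They include EGR1, with the largest rise, and JUND. In counts scaled by library alone JUND fell, and it did not once an offset for length and GC content of transcripts was added. RefSeq windows of 300 bases, 250 before and 50 after the start (build GRCh38.p14), were found for 8 of the 10 genes, with 9 windows in all since ATF3 had 2. FOSL1 and MYC had no such window and were not searched. Capitals mark CArG boxes, the SRF site, in EGR1, the letters TGACATCA, known from the JUN promoter as a site for JUN and ATF proteins, in JUN, KLF6 and ATF3, and the cyclic AMP response element TGACGTCA in JUND.
EGR1, chr5:138465229-138465528, plus strand: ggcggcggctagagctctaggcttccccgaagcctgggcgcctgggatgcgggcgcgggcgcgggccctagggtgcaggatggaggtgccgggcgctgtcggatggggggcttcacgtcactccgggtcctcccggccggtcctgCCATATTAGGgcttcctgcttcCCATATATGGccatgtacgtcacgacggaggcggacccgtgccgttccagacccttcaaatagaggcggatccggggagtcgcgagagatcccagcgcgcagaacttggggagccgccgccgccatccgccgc
JUN, chr1:58783998-58784297, minus strand: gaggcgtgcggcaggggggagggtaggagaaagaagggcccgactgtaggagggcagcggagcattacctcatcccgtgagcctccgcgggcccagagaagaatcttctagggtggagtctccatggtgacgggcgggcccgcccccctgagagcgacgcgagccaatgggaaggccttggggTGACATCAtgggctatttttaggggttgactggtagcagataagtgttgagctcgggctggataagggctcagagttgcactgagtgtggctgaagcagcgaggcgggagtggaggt
KLF6, chr10:3785160-3785459, minus strand: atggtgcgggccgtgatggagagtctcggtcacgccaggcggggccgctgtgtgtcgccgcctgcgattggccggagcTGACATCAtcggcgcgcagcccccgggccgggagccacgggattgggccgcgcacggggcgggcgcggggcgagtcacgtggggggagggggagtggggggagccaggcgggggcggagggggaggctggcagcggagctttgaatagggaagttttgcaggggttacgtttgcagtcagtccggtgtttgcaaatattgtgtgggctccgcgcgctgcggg
ATF3, chr1:212565157-212565456, plus strand: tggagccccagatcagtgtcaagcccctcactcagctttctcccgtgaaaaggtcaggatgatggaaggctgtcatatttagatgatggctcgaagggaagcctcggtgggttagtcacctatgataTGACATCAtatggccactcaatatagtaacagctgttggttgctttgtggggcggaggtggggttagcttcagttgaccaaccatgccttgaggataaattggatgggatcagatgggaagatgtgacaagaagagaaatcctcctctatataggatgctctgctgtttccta
JUND, chr19:18281573-18281872, minus strand: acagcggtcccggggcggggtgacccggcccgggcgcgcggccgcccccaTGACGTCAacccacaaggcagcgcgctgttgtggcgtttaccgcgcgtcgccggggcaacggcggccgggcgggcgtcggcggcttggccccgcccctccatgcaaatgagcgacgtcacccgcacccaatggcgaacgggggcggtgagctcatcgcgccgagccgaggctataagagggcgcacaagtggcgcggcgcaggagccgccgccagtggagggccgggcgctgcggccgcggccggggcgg

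The EGR1 window held 2 CArG boxes, at positions -105 and -83 from the start, and CArG boxes were found in 454 of 35116 windows of the same length (1.29%). TGACATCA, searched on both strands, lay at -67 in JUN, -172 in KLF6 and -123 in ATF3, and in 2.61% of all windows. TGACGTCA lay at -200 in JUND and in 1.85% of all windows. The AP-1 letters TGANTCA were found in FOSL2 alone among these 9 windows, and in 7.71% of all windows. TATAAA, searched on the gene's strand, lay at -33 in FOS, -31 in JUNB and -230 in the second ATF3 window, and in 7.33% of all windows. TGACG, which lies within TGACGTCA, was in 6 of the 9 windows and in 24.6% of all. CACGTG was in KLF6 and in 7.26% of all windows, and the EGR letters GCGTGGGCG were in 0 of the 9 and in 0.795% of all. A match is a run of letters and not a measured binding site.

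Total counts ran from 15661916 to 22790599 per library, and all 10 factors passed the filter on low counts. Levels are CPM, the count of a gene relative to its library's TMM-scaled total, and changes come from edgeR's quasi-likelihood test over 14964 genes, with an adjusted p below 0.05 as the threshold. Values per library are listed in the order of library numbers 1 to 3, and an effect given as a log2 value is shLIS1 over control with its SE. PAFAH1B1 itself was at 154 to 165 CPM in control and 109 to 113 CPM in shLIS1 (log2 -0.52, SE 0.05, edgeR adjusted p = 6.53e-08, and -0.81 with the offset). In bulk RNA, fewer cells of a type and less RNA per cell cannot be told apart. Control library 1 lay apart from the other controls on the second principal component, at 27.1 against -16.4 and -14.1. All 10 squamous markers were detected, and they summed to 13840 to 14130 CPM in control and 12590 to 13610 CPM in shLIS1, without overlap. KRT5 was at -0.26 and KRT14 at -0.50 on the log2 scale (-0.06 and -0.17 with the offset). TP63 was at -0.14 and EPCAM at -0.31 (-0.39 and -0.29 with the offset). Of the 10 markers 4 were called higher, KRT6A (0.27, and 0.45 with the offset) and DSG3 (0.49, and 0.22) among them. Another 4 were called lower, and the median of the 10 was 0.05. With the offset 5 were higher and 3 lower. Over all genes tested 23.5% were higher and 24.9% lower, and with the offset 17.7% and 24.0%. Of the immune markers 3 of 6 were not listed while the other 3 summed to at most 0.303 CPM. Summed fibroblast markers, of which 4 of 8 passed the filter on low counts, were 17.1 to 21.9 CPM in control and 13.3 to 15.9 CPM in shLIS1, and endothelial markers, of which 2 of 4 passed, 12.8 to 17.1 and 7.15 to 8.54 CPM. The neuronal and glial list, in which MBP was the 1 gene that passed the filter on low counts, gave 53.6 to 57.2 and 39.3 to 46.4 CPM. The part of these markers in the results was not tested.

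Of the 10 factors, 7 rose in shLIS1, 1 (JUND, whose sign turned with the length and GC offset) fell, and 2 did not pass. Among all genes tested 23.5% were called higher and 24.9% lower, 48.4% in all. The median log2 fold change of the 10 was 0.55, against -0.01 over all genes tested. The control and shLIS1 libraries did not overlap for 7 factors that were higher and 1 that was lower, against 27.1% and 29.0% of all genes and 56.1% in either direction. EGR1 and KLF6 were the 2 factors called with at least a 2-fold rise, which 3.41% of all genes reached.

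**Figure D1:**
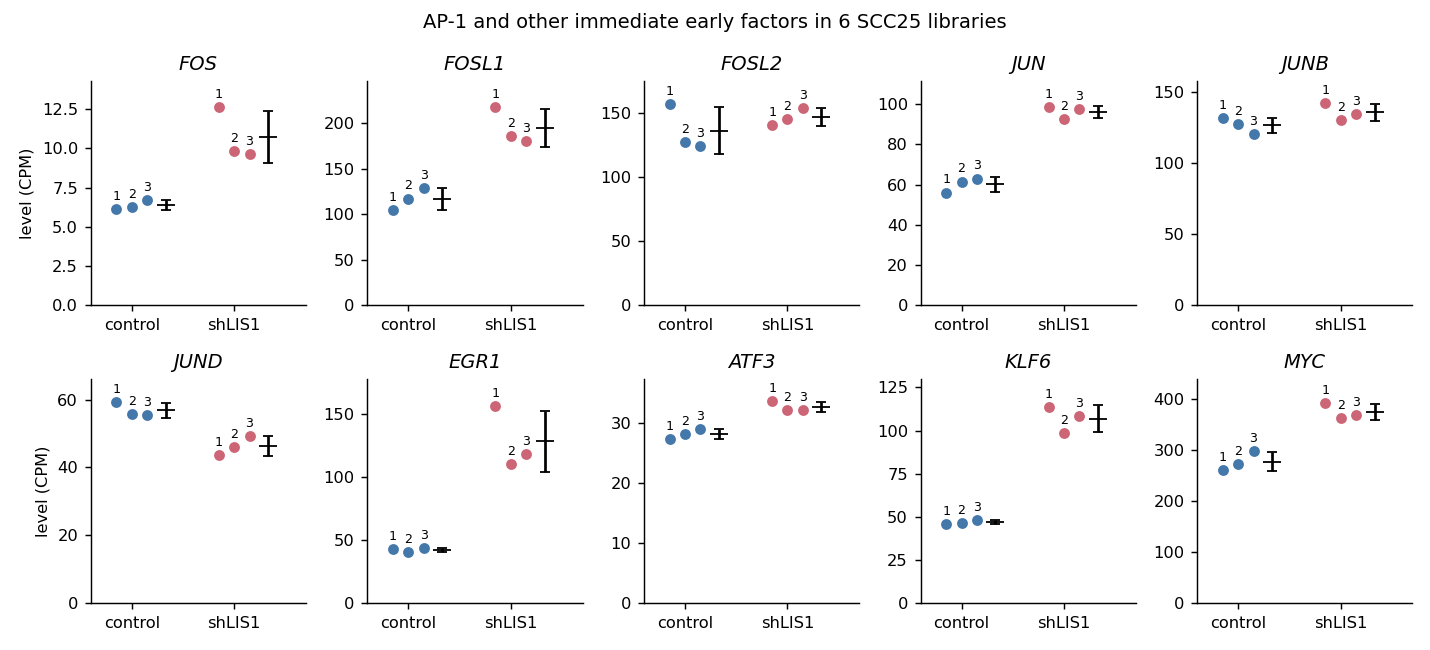
Level of each factor in CPM (linear axis from 0) in the 3 control and 3 shLIS1 libraries; points are libraries with their number, and the bar beside them is the mean ± SD (n = 3). EGR1 and KLF6 have the largest folds, 3.05 and 2.28, FOSL2 and JUNB overlap between groups, and JUND is the factor that lies lower in shLIS1, on this scale without the length and GC offset.

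In the FOS family, FOS and FOSL1 rose and FOSL2 did not pass the test. FOS (ENSG00000170345, hg38 chr14:75278826-75282230, plus strand), the founding immediate early gene, measured 6.16, 6.26 and 6.72 CPM across the controls and 12.7, 9.84 and 9.67 CPM across shLIS1. All shLIS1 libraries lay above all controls, and shLIS1 library 1 lay above the other 2. Its group means were 6.38 ± 0.302 and 10.7 ± 1.69 CPM (SD, 3 libraries per group), a 1.68-fold rise (log2 0.75, SE 0.13, edgeR adjusted p = 7.7e-05). FOS was the lowest of the 10 factors per kilobase in every library, with 96 to 273 reads, and without shLIS1 library 1 its log2 fold change was 0.61.

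FOSL1 (ENSG00000175592, chr11:65892049-65900573, minus strand), which encodes FRA-1, gave 105, 117 and 129 CPM in the controls against 218, 186 and 180 CPM with the hairpin. The groups were apart, and the lowest shLIS1 library exceeded the highest control by more than the range within the controls. Averages were 117 ± 12.1 and 195 ± 20.6 CPM (SD, 3 libraries per group), a 1.66-fold rise (log2 0.73, SE 0.09, edgeR adjusted p = 2.2e-05). FOSL2 (ENSG00000075426, chr2:28392448-28417317, plus strand), which encodes FRA-2, gave 157, 127 and 124 CPM in the controls and 141, 145 and 154 CPM with the hairpin. Control library 1 held the highest FOSL2 level of all 6 libraries, so the groups overlapped. The effect was 0.11 on the log2 scale (SE 0.08, edgeR adjusted p = 0.274), and without control library 1 it was 0.22 and passed (adjusted p = 0.000937).

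Per kilobase of transcript, on which scale levels of different genes can be set side by side, FOSL1 made up most of the FOS family. Its share of the summed CPM per kilobase of FOS, FOSL1 and FOSL2 was 70.6%, 76.3% and 78.2% over the controls, against 83.0%, 81.0% and 79.7% over shLIS1. The shares did not overlap, with means of 75.0% ± 3.97 and 81.2% ± 1.65 (SD, n = 3 each). FOSL2 made up 21.8% ± 3.94 in control and 15.3% ± 1.87 in shLIS1, and FOS 3.17% ± 0.0286 and 3.45% ± 0.239. Each of these differences had p = 0.1 in a two-sided exact permutation test, the smallest p that 3 against 3 libraries can give. Without control library 1 the differences for FOSL1 and FOSL2 went from 6.22 and -6.51 to 4.004 and -4.30 percentage points, and without shLIS1 library 1 that for FOS went from 0.284 to 0.147. The shares were not corrected for GC content. Computed from CPM not divided by length, FOSL2 was the larger part in control, at 52.3% against 45.2% for FOSL1. On that scale FOSL1 was the larger part in shLIS1, at 55.2% against 41.7% for FOSL2. FOSB, the remaining FOS gene, was chosen after its values were seen and stood at 1.42 to 1.73 CPM in control and 3.11 to 4.60 CPM in shLIS1 (log2 fold change 1.31, edgeR adjusted p = 4.8e-05).

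In the JUN family, JUN rose, JUNB did not pass and JUND fell, while with the length and GC offset JUNB passed as higher and the sign of JUND turned. JUN (ENSG00000177606, chr1:58776845-58784048, minus strand), the partner in most FOS dimers, measured 56.1, 61.5 and 63.0 CPM over the controls and 98.4, 92.7 and 97.4 CPM over shLIS1. Every shLIS1 library was above every control by a gap wider than the range within either group. Averages were 60.2 ± 3.67 and 96.2 ± 3.06 CPM (SD, 3 libraries per group), a 1.60-fold rise (log2 0.67, SE 0.06, edgeR adjusted p = 1.76e-08).

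JUNB (ENSG00000171223, chr19:12791486-12793315, plus strand), which can act against JUN at growth genes, gave 132, 127 and 121 CPM in the controls and 142, 130 and 135 CPM with the hairpin, so that the groups overlapped. Its effect was 0.10 on the log2 scale (SE 0.05, edgeR adjusted p = 0.128), and 0.48 with the offset (adjusted p = 4.75e-08). JUNB overlaps HOOK2 on the opposite strand, and whether counting used the strand is not given in the sources used here, so its counts are uncertain. HOOK2, a dynein adaptor, had means of 45.4 and 42.9 CPM (log2 fold change -0.08, edgeR adjusted p = 0.345).

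JUND (ENSG00000130522, chr19:18279694-18281622, minus strand), known for steady expression in resting and growing cells, gave 59.3, 55.6 and 55.5 CPM in the controls and 43.7, 45.9 and 49.4 CPM with the hairpin. It was lower in every shLIS1 library than in any control. Averages were 56.8 ± 2.19 and 46.3 ± 2.85 CPM (SD, 3 libraries per group; log2 -0.29, SE 0.07, edgeR adjusted p = 0.00132). Among the 10 factors JUND had the highest transcript GC content, 69.7%. When edgeR was given an offset for the length and GC content of transcripts, JUND was at 0.09 (adjusted p = 0.262).

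JUN held a larger and JUND a smaller part of the JUN family in every shLIS1 library than in any control. On the scale per kilobase, without correction for GC content, JUN made up 13.2%, 14.8% and 15.6% of the family over the controls and 21.5%, 21.4% and 21.5% over shLIS1. JUND made up 26.5%, 25.5% and 26.1% over the controls and 18.1%, 20.1% and 20.7% over shLIS1. Neither share overlapped between groups, and both differences had p = 0.1, the smallest that the two-sided exact permutation test allows here. JUNB remained the largest part, at 59.4% ± 1.04 in control and 58.9% ± 1.34 in shLIS1 (SD, n = 3 each, exact permutation p = 0.8).

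**Figure D2:**
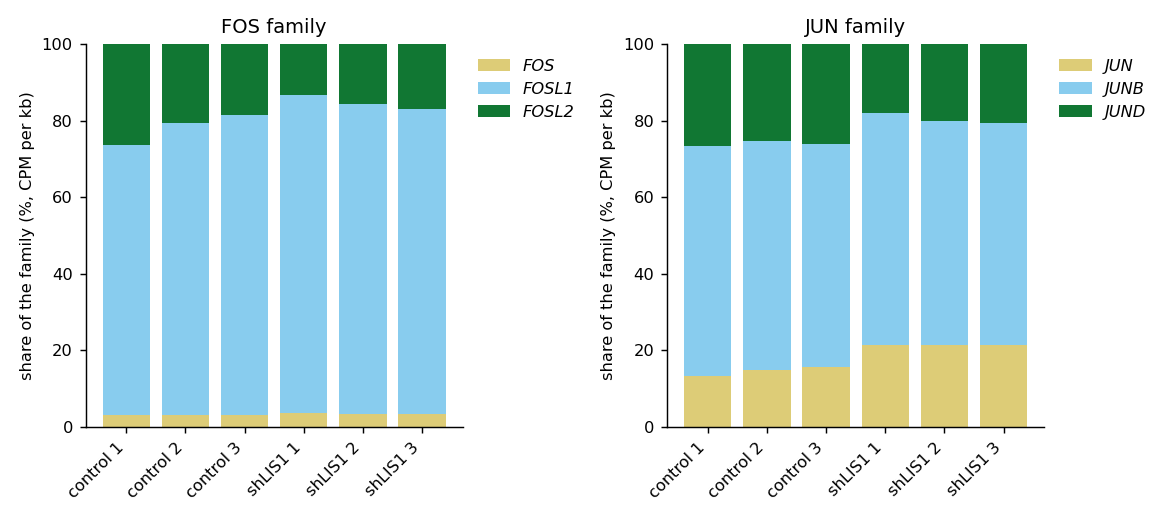
Share of each gene (%) in the summed CPM per kilobase of its family, by library, for the FOS family (left) and the JUN family (right); the parts of each bar sum to 100. FOSL1 and JUNB are the largest parts in all 6 libraries, and JUN takes a larger and JUND a smaller part in the 3 shLIS1 libraries, without correction for GC content.

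EGR1 had the largest rise of the 10 factors. EGR1 (ENSG00000120738, chr5:138465479-138469303, plus strand) measured 42.5, 40.3 and 43.2 CPM over the controls and 156, 110 and 118 CPM over shLIS1. The controls lay close together, and the shLIS1 libraries all lay above them but were spread more widely, with library 1 the highest. Averages were 42.0 ± 1.501 and 128 ± 24.3 CPM (SD, 3 libraries per group), a 3.05-fold rise (log2 1.61, SE 0.13, edgeR adjusted p = 5.34e-05). Among the 14964 genes tested 121 had a larger log2 fold change. Without shLIS1 library 1 the log2 fold change was 1.45. The paralogs EGR2 and EGR3, chosen after their values were seen, rose from 0.477 and 0.234 CPM to 1.502 and 1.01 CPM (log2 1.69 and 2.10, edgeR adjusted p = 0.000849 and 0.000626).

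KLF6 (ENSG00000067082, chr10:3775996-3785281, minus strand), a growth-restraining factor in several epithelia, measured 46.1, 46.6 and 48.1 CPM over the controls and 114, 98.4 and 109 CPM over shLIS1. The gap between the groups was wider than the range within either. Averages were 46.9 ± 1.06 and 107 ± 7.84 CPM (SD, 3 libraries per group), a 2.28-fold rise (log2 1.19, SE 0.06, edgeR adjusted p = 2.04e-11), and 337 tested genes had a larger log2 value.

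ATF3 (ENSG00000162772, chr1:212565334-212620777, plus strand), a target of ATF4 in the amino acid response, gave 27.4, 28.1 and 29.1 CPM in the controls and 33.7, 32.1 and 32.2 CPM with the hairpin. The groups were apart by a small margin. Averages were 28.2 ± 0.839 and 32.6 ± 0.877 CPM (SD, 3 libraries per group; log2 0.21, SE 0.07, edgeR adjusted p = 0.0209). Without shLIS1 library 1 the call was lost (adjusted p = 0.071). It was also lost with upper quartile scaling (adjusted p = 0.0551), under which 21.0% of all genes were called higher and 28.2% lower, 49.2% in all.

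Per kilobase MYC (ENSG00000136997, chr8:127735434-127742951, plus strand) was the most abundant of the 10 in all 6 libraries. It measured 260, 273 and 298 CPM over the controls and 393, 362 and 369 CPM over shLIS1. No shLIS1 library came down to the highest control. Averages were 277 ± 19.4 and 375 ± 16.3 CPM (SD, 3 libraries per group), a 1.35-fold rise (log2 0.43, SE 0.06, edgeR adjusted p = 3.79e-06). CASC11 overlaps MYC, and FOSL2-AS1 overlaps FOSL2, on the opposite strand, both under 1 CPM on average, and reads from such pairs cannot be told apart without strand.

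The order of the levels per kilobase, which were not corrected for GC content, changed between the groups. In control MYC was first at 117 ± 8.20 CPM per kilobase, followed by FOSL1 at 70.2 ± 7.22 and JUNB at 69.6 ± 3.00, which overlapped, and then by JUND at 30.5 ± 1.18 (SD, n = 3 each). FOSL2, JUN, ATF3, EGR1, KLF6 and FOS came next, at 20.3, 17.0, 13.9, 13.4, 10.1 and 2.96 CPM per kilobase, and of these neighbours ATF3 and EGR1 overlapped. In shLIS1 MYC stayed first at 158 ± 6.88 CPM per kilobase, FOSL1 at 117 ± 12.3 now stood apart from JUNB at 74.6 ± 3.37, and EGR1 at 40.9 ± 7.75 stood at place 4 of 10, against place 8 in control. JUN, JUND and KLF6 followed at 27.2, 24.9 and 23.0 CPM per kilobase, and each of these overlapped the next below it, KLF6 also overlapping FOSL2. FOSL2, ATF3 and FOS came last at 21.9, 16.1 and 4.97 CPM per kilobase.

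Within each group most of the factors were highest in the same library, which was not counted over all genes, and their spread differed. Of the 10, 8 were highest among the shLIS1 libraries in library 1, and FOSL2 and JUND were highest in library 3. Among the controls 7 were highest in library 3, while FOSL2, JUNB and JUND were highest in library 1. The coefficient of variation over the 3 shLIS1 libraries was 19.0% for EGR1, 15.7% for FOS and 10.6% for FOSL1, and 2.69% to 7.33% for the other 7.

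The genes share a compact structure that the choice by name did not use. Their median span was 7361 bases, against 29990 for all genes tested, and 8 of 10 spanned under 10000 bases, as did 23.2% of all. JUN, JUNB and JUND have a single exon in GENCODE release 29, as do 5.2% of tested genes with an annotated transcript. The 3′ UTR of the longest transcript held at least 1 ATTTA, the core of AU-rich elements that mark short-lived mRNAs, in all 10, and in 73.0% of 12719 tested genes with a 3′ UTR. MYC held 4 in 476 bases and FOS 5 in 806 bases, while EGR1 held 1 in 1234.

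Transcript composition moved with the fold changes over all genes, and the factors lay on its GC-rich side. Their median GC content was 54.6%, against 48.6% for the tested genes, and 8 of them fell in the upper 2 of 5 GC classes. Median log2 fold changes of all tested genes in those classes were -0.15 and -0.28. With an offset per library smoothed over length and GC content, 9 factors were called higher and 0 lower, against 17.7% and 24.0% (41.8% in all) of the genes tested that way. No factor had an unadjusted p under 0.05 for a fall with the offset (0 of 10), while DESeq2 and limma-voom, run without it, each called 1 lower. Of the 10 factors 9 had a higher log2 fold change with the offset, the exception being KLF6, which went from 1.19 to 1.05. The offset takes out the trend over all genes, so GC-rich genes tend to rise with it. How many of all genes rose with it was not counted. JUNB went from 0.10 to 0.48 (edgeR adjusted p = 4.75e-08), FOSL1 from 0.73 to 1.06 and JUND from -0.29 to 0.09. FOSL2 went from 0.11 to 0.15 and then passed (edgeR adjusted p = 0.0241). The order within the JUN family, with JUN above JUNB and JUNB above JUND, was the same in both fits.

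**Figure D3:**
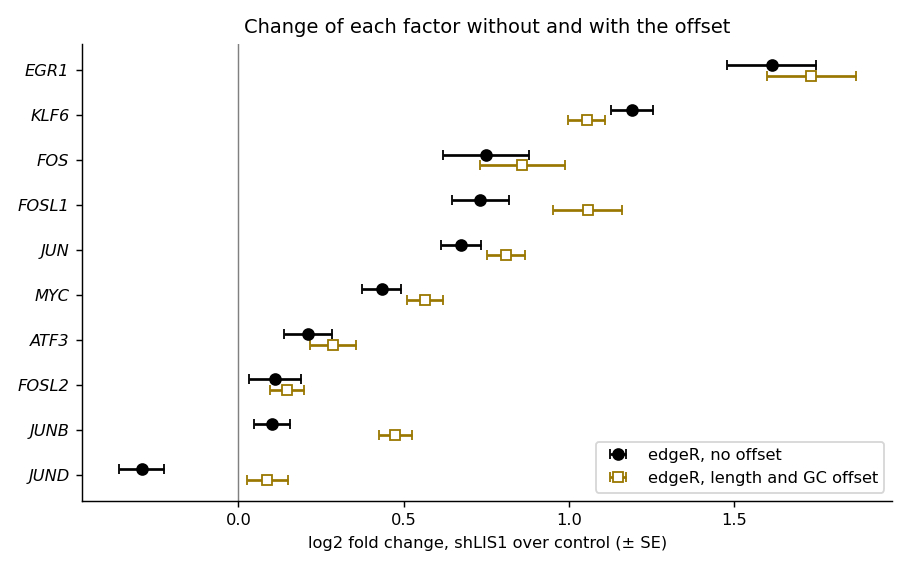
Log2 fold change of shLIS1 over control for each factor with its SE, from edgeR without an offset (filled circles) and with the length and GC offset (open squares). EGR1, KLF6, FOS, FOSL1, JUN and MYC lie above 0 in both, JUNB moves from 0.10 to 0.48, and JUND from -0.29 to 0.09.

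**Figure D4:**
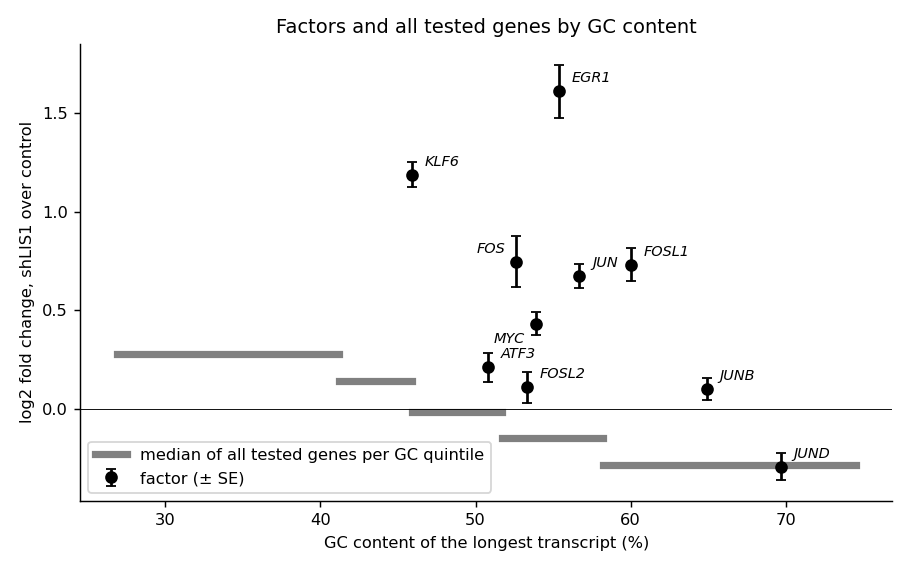
Log2 fold change of each factor (points ± SE, no offset) against the GC content of its longest transcript, with grey bars for the median of all tested genes in each of 5 GC classes of equal size. The grey bars step down from 0.28 to -0.28, and JUND lies on the bar of its class while the other 9 lie above theirs.

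For the gene lists that follow, the shares over all genes tested were 23.5% higher and 24.9% lower, with a median log2 fold change of -0.01. Counts with the offset stand beside 17.7% higher and 24.0% lower, with a median of -0.03. Of 11 tested AP-1 partner and inhibitor genes, FOSB among them, 4 rose, 2 fell and 5 did not pass, with a median of 0.08. MAFF, a small MAF protein, rose from 33.1 ± 0.783 to 42.8 ± 4.60 CPM (SD, n = 3 each; log2 0.38, and 0.63 with the offset). JDP2, a JUN dimerization protein that represses AP-1 sites, fell with -0.66, from 31.3 ± 0.630 to 19.9 ± 2.00 CPM. MAFG fell with -0.17 and was at -0.03 with the offset. The falls numbered 1 without control library 3, shLIS1 library 1 or shLIS1 library 3.

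Among 38 other immediate early genes 18 rose, 6 fell and 14 did not pass, and the median was 0.19. KLF10, a TGF-beta induced Krüppel-like factor, rose from 67.4 ± 1.96 to 106 ± 1.504 CPM, and TRIB1, a pseudokinase scaffold, from 12.8 ± 0.679 to 26.0 ± 2.14 CPM (SD, n = 3 each). Their log2 fold changes were 0.66 and 1.02 (edgeR adjusted p = 6.77e-09 and 1.54e-08). The falls with the smallest p were ID1 (-0.70, and -0.41 with the offset), an inhibitor of basic helix-loop-helix factors, and IER5L (-0.85, and -0.54).

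Of the genes that switch the factors on, the SRF group and the kinases went both ways. Among 6 SRF and cofactor genes 3 rose and 2 fell. The ternary complex factor ELK3 (0.54, and 0.32 with the offset) and the cofactor MRTFB (0.50, and 0.24) rose, while SRF itself (-0.32) and MRTFA (-0.29) fell. There was 1 fall without control library 3, and 0 with the offset (0 also at an unadjusted p under 0.05; DESeq2 and limma-voom, without it, each called 2), where SRF stood at -0.12 and MRTFA at -0.08 (edgeR adjusted p = 0.109 and 0.426). Of 15 ERK pathway kinases 8 fell, among them the MAP kinase kinase MAP2K2 (-0.43, and -0.05 with the offset) and the ribosomal S6 kinase RPS6KA1 (-0.40, and -0.22). RPS6KA3 (0.57, and 0.17 with the offset) and BRAF (0.21) rose, and BRAF was at -0.22 with the offset (edgeR adjusted p = 0.0231). Of those 2 rises 1 was called without control library 1 or 3 or any 1 of the shLIS1 libraries. Of 17 tested JNK and p38 pathway kinases 7 rose, including MAP3K7 (0.53) and MAP3K20 (0.49), and 5 fell, including MAP3K11 (-0.40) and the p38 kinase MAPK11 (-0.53). With the offset 2 rose and 6 fell, and these 4 stood at 0.18, 0.09 (edgeR adjusted p = 0.159, so that the call was lost), -0.12 and -0.22.

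Of 19 tested ERK feedback genes, which ERK signalling induces and many of which restrain it, 11 rose, 0 fell and 8 did not pass, with a median of 0.24, and with the offset 10 rose and 0 fell. No gene of the list fell at an unadjusted p under 0.05, nor by DESeq2 or limma-voom (0 each). ERRFI1, an inhibitor of the EGF receptor, rose from 135 ± 4.49 to 267 ± 15.4 CPM, and the ERK phosphatase DUSP6 from 39.7 ± 4.17 to 88.4 ± 6.29 CPM (SD, n = 3 each). Their log2 fold changes were 0.99 and 1.15 (edgeR adjusted p = 4.92e-11 and 4.27e-10).

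Of 27 tested genes known as AP-1 targets in keratinocytes or carcinoma, 19 rose, 3 fell and 5 did not pass, with a median of 0.59. HBEGF, a ligand of the EGF receptor, rose from 53.1 ± 3.09 to 125 ± 7.99 CPM, and the collagen receptor subunit ITGA2 from 72.1 ± 2.92 to 133 ± 3.72 CPM (SD, n = 3 each). Those are log2 fold changes of 1.23 and 0.89 (edgeR adjusted p = 1.39e-11 and 1.21e-10), and ITGA2 was at 0.50 with the offset. The chromatin protein HMGA1 (-0.37, and -0.06 with the offset) and the intermediate filament gene VIM (-0.41, and -0.26) fell. The list holds the matrix metalloproteinase genes MMP10 (1.56) and MMP13 (-0.69), chosen after their values were seen, which changed in opposite directions. Many of these genes have other regulators, and SPRR genes in the list have close copies, so their counts are uncertain.

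**Figure D5:**
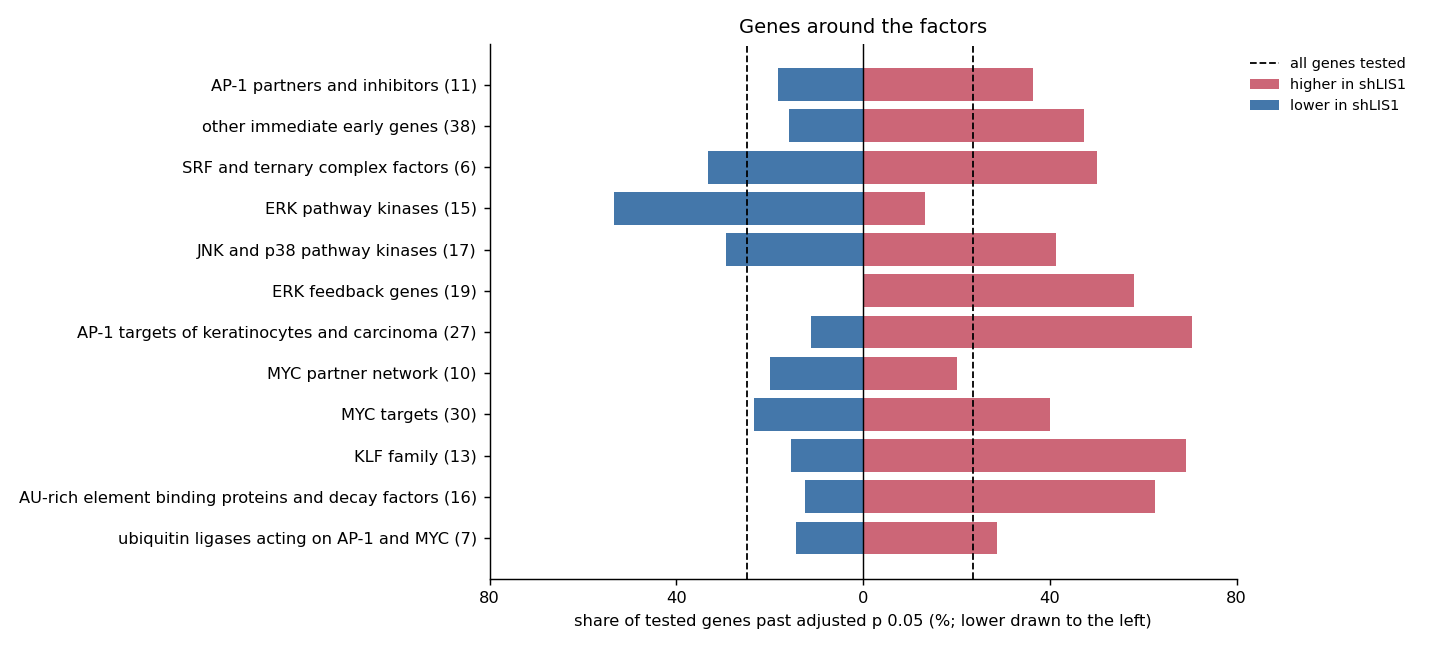
Share of tested genes in each list (%, number tested in brackets) past an edgeR adjusted p of 0.05, higher in shLIS1 to the right and lower to the left; dashed lines give the shares over all genes tested, 23.5% and 24.9%. AP-1 targets, KLF family genes and AU-rich element binding and decay genes reach furthest to the right, and ERK pathway kinases furthest to the left.

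Of 10 MYC partner genes 2 rose, the MYC antagonist MXD1 (0.75, and 0.49 with the offset) and the MAX partner MGA (0.69, and 0.28), and 2 fell, MLX (-0.19, and -0.12) and MXD4 (-0.35, and -0.11). With the offset 0 fell (2 at an unadjusted p under 0.05; DESeq2 called 1 and limma-voom 2 without it). There was 1 fall without control library 3, shLIS1 library 1 or shLIS1 library 2. Of 30 genes known as MYC targets 12 rose and 7 fell, with a median of 0.02, and with the offset 17 rose and 4 fell with a median of 0.18. The transferrin receptor TFRC rose from 629 ± 62.9 to 1484 ± 5.15 CPM (SD, n = 3 each; log2 1.24), and the nucleolar protein gene NOP58 rose with 0.68. CDK4 (-0.53) and the DNA repair enzyme APEX1 (-0.35) fell.

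Of 13 other Krüppel-like factor genes tested 9 rose and 2 fell, and the median was 0.37, while with the offset 7 rose and 1 fell. KLF7 rose from 40.5 ± 1.89 to 69.9 ± 2.67 CPM (SD, n = 3 each; log2 0.79, and 0.52 with the offset), beside KLF10. KLF2, KLF4 and KLF10 are counted among the other immediate early genes as well. KLF13 fell with -0.24, and its call was lost with the offset (-0.10, edgeR adjusted p = 0.0989). On leaving out 1 library 6 to 9 of these genes rose, and 1 fell without control library 3 or shLIS1 library 3. Of 16 genes for AU-rich element binding and mRNA decay 10 rose and 2 fell, and with the offset 5 rose and 2 fell. Without control library 3 or shLIS1 library 3, 1 of them fell. ZFP36, ZFP36L1 and ZFP36L2 in this list are also counted among the other immediate early genes. The exonuclease XRN1 (0.86, and 0.35 with the offset) and TIA1 (0.80, and 0.42) rose, and the stabilising protein ELAVL1 (-0.23, and -0.38) and KHSRP (-0.18, and 0.03) fell. Of 7 tested ubiquitin ligases and related genes acting on AP-1 and MYC, FBXW7 (0.87), which marks MYC and JUN for degradation, and ITCH (0.25, and -0.14 with the offset) rose, and FBXL14 (-0.57, and -0.35) fell. With the offset 1 of these 7 rose and 3 fell, and the median went from 0.08 to -0.14. Without it 4 rose without control library 1 and 1 without control library 3.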

How the data were processed

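Per the labels' protocols, mRNA was enriched by its poly(A) tail and second strands were made with dUTP. The authors deposited raw counts, whole numbers per gene without normalization, for 26524 genes in 6 libraries of 15661916 to 22790599 counts. Per the submitters' processing notes the build is hg 38, while the sources used here give no aligner, counter or use of strand.

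The main test was edgeR 4.0.16 (R 4.3.3), quasi-likelihood with robust estimation and group as the 1 factor, after TMM scaling and the filterByExpr filter (10 counts at least, 15 in total). Benjamini-Hochberg adjustment ran over 14964 genes, and each SE is the log2 fold change without sign divided by the root of F. Family shares had exact permutation tests. For each gene GENCODE release 29 gave length, GC content and 3′ UTR of its longest transcript, a protein-coding one where present (14491 genes, 96.8%). The offset was a smooth of each library's deviation over log2 length and GC content (mgcv 1.9.3, basis of 6 on each axis).

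The 10 factors, the 12 gene lists and the alternatives were chosen with earlier results of these data known. Named list genes are, in each list and direction, the 2 of smallest p that passed and averaged 5 CPM or more. The squamous markers given with log2 values were named after their values were seen, and so were other genes where this is said. In simulated counts for 14726 genes, 40% of genes changed 1.25-fold, 72% at 1.5-fold, 90% at 2-fold and 96% at 4-fold were recovered. Of the simulated calls 8.02% were unchanged genes. Far fewer genes were changed there than the 48.4% called in the data. Adjusted p-values depend on that share, so these rates need not hold for the data. With only a length and GC trend simulated, of the form the offset uses, 27.7% of 14964 genes were called without the offset and 0% of 14491 with it. That trend was made with the smooth the offset fits, so the 0% was set by the design. Whether the trend in the data is technical was not tested. Libraries of a group differed by more than sampling noise (chi-square per gene 2.65 to 10.9), so none was treated as a copy of another, which does not show that they came from separate cultures. Alternatives were RLE and upper quartile scaling, other filters on low counts, DESeq2 1.42.0, limma-voom (limma 3.58.1), the replicate number as a block, no robust estimation, the offset, and leaving out each library.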

Additional observations from a re-analysis of the deposited data

How the results depend on the processing

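Over 16 alternatives FOS, FOSL1, JUN, EGR1, KLF6 and MYC kept their call and direction, with log2 fold changes from 0.38 (MYC without control library 1) to 1.73 (EGR1 with the length and GC offset). With that offset JUND turned from -0.29 to 0.0880, so 0 factors were lower, while JUNB (0.48) and FOSL2 (0.15) passed. The same offset with the replicate number as a block gave 0 lower, JUND at 0.0882 and JUNB at 0.48, and FOSL2 did not pass (adjusted p = 0.0607). ATF3 lost its call with upper quartile scaling (0.17). On leaving out 1 library, FOSL2 ranged from 0.0539 to 0.22 and passed without control library 1, and ATF3 ranged from 0.19 to 0.24 and lost its call without shLIS1 library 1. The factors called higher then numbered 6 to 8, and the gene lists together held 85 to 93 higher and 32 to 41 lower genes, against 96 and 40 with all libraries.

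No pairing by replicate number was seen, as same-numbered libraries deviated with correlations of -0.04, 0.03 and -0.04. These values cannot show whether such libraries were prepared together. With the replicate number as a block 7 factors were higher and 1 lower, as without it, and it changed no other call among them. Computed from CPM not divided by length, the shLIS1 minus control difference in family share was 0.576 percentage points for FOS, 10.02 for FOSL1, -10.6 for FOSL2, 9.82 for JUN and -3.17 for JUNB, against 0.284, 6.22, -6.51, 6.90 and -0.506 per kilobase. On leaving out 1 library the differences ranged from 0.147 to 0.354 for FOS, 4.004 to 7.82 for FOSL1, -8.10 to -4.30 for FOSL2, 6.22 to 7.44 for JUN, -1.26 to 0.0299 for JUNB and -6.91 to -5.63 for JUND. FOS, at 96 to 137 reads in control, has the fewest reads of the 10, and a count of 0 allows up to 3 counts, or 0.130 to 0.192 CPM. Such limits cover counting error only.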

Other observations

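Among tested genes next to the factors in the deposited coordinates, CCDC85B, FIBP and PRDX2 were called lower, and an unnamed gene at a low level higher. The other tested neighbours, HOOK2, IQCN, CASC11, FOSL2-AS1, ENSG00000260805 and ENSG00000270210, were not called. Over all genes tested 24.9% were called lower and 23.5% higher. Within 10000 bases of FOSL1, CCDC85B went from 86.9 to 57.7 CPM (log2 fold change -0.59, edgeR adjusted p = 1.21e-07) and FIBP from 98.2 to 73.2 CPM (-0.43), while FOSL1 rose. PRDX2, a peroxidase gene 3505 bases from JUNB, went from 65.1 to 41.6 CPM (-0.64, edgeR adjusted p = 1.76e-07). Near JUN, the unnamed gene ENSG00000283445 went from 0.314 to 0.926 CPM (1.59, edgeR adjusted p = 0.00539). These neighbours were chosen after their values were seen, and their values are without the length and GC offset.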
